A study of Mus musculus with 25 samples.

Results

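The interferon regulatory factors (IRFs) are a family of transcription factors that share a DNA-binding domain of the winged helix-turn-helix type. The 8 members described here, Irf1, Irf2, Irf3, Irf4, Irf5, Irf7, Irf8 and Irf9, were taken by gene symbol from a table of 30749 genes. All 8 passed the filter on low counts that left 17216 genes for testing. The libraries came from macrophages sorted from glioblastomas in lineage-based mouse models of this brain tumour. MDM are monocyte-derived macrophages, which enter a tumour from the blood, and microglia are the resident macrophages of the brain. The labels divide the tumours into types 2 and 1 and into transplanted and spontaneous models, giving 4 tumour classes written here as T2t, T2s, T1t and T1s. MDM were represented by 2 T2t, 1 T2s, 4 T1t and 2 T1s libraries, 9 in all, and microglia by 3 libraries of each class, 12 in all. The labels give no strain, genotype, driver, age, agent, pooling or sort gate, and no label ties a library to its own animal, so a p-value here reflects the variation among libraries, some of which may be technical. Microglia from normal brains were not analysed here, so no level below has a tumour-free baseline.

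IRF proteins bind sequences built from GAAA repeats, which are found in the promoters of type I interferon genes and of the genes that interferons induce. Irf3, Irf5 and Irf7 are held in the cytoplasm until sensors of nucleic acids or of bacterial products activate them, Irf9 is part of the complex ISGF3 below the type I interferon receptor, and Irf1 is induced by interferon gamma. Irf4 and Irf8 bind poorly alone and act with partners such as PU.1 (Spi1) and Batf, and Irf8 is required for normal microglia and for monocyte and dendritic cell development. The 3 members whose upstream windows held a searched motif are shown first, because the motifs are those through which Stat and IRF proteins bind. Each window is the 250 bases before the RefSeq start (GRCm38.p6), read 5′ to 3′ on the gene's strand, which is the plus strand for all 3. They lie at chr11:53769764-53770013 for Irf1, at chr8:46739495-46739744 for Irf2 and at chr8:120736108-120736357 for Irf8. Capitals mark matches to the Stat motif GAS (TTCNNNGAA), to the interferon-stimulated response element ISRE (GAAA, any 2 bases, GAAA) and to the Ets-IRF composite element EICE (GGAA, any 2 bases, GAAA).
Irf1: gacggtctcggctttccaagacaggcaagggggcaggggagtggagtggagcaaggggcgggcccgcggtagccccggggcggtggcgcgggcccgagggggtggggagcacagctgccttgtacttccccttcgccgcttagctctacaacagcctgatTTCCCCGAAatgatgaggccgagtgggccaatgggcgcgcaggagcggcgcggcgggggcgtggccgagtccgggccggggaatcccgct
Irf2: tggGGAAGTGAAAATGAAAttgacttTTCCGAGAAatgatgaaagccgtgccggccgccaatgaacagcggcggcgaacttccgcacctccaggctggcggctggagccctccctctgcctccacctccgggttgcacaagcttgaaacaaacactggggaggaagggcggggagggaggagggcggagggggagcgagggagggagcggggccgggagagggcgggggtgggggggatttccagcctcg
Irf8: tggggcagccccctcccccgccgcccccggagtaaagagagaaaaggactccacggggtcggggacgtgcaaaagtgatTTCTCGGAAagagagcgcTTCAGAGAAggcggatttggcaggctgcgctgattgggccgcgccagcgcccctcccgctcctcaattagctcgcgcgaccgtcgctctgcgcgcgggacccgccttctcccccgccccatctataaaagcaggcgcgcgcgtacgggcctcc
The Irf1 window held a GAS match 90 to 82 bases before the start. The Irf2 window held an EICE match that overlapped an ISRE match, together spanning bases -247 to -232, and a GAS match at -224 to -216. The Irf8 window held 2 GAS matches, at -171 to -163 and at -153 to -145. Both strands were searched, and of 32851 upstream windows of the same length 7.02% held the GAS letters, 2.98% the ISRE letters and 2.3% the EICE letters. The first-start windows of Irf3, Irf4, Irf5, Irf7 and Irf9 did not hold these letters. A match is a stretch of letters, and binding was not measured.

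Libraries held 26530069 to 50365607 reads, and 16297 to 21435 genes were detected in each. Levels are normalised read counts, fold changes are differences in log2(normalised count + 1) with the standard error of the fit, and each adjusted p is a Benjamini-Hochberg value from limma-trend for all 17216 genes, with 0.05 as the threshold for a call. MDM libraries differed from microglia libraries in the direction of their labels, with 7 of 7 MDM markers higher and 8 of 8 microglia markers lower. The MDM libraries also held more transcripts of other blood cells: 8 of 8 T and NK cell markers, 6 of 7 B and plasma cell markers and 6 of 6 conventional dendritic cell markers were higher. The summed T and NK cell markers were 5218 to 221733 in MDM, against 73.9 to 3163 in microglia. The summed conventional dendritic cell markers were 5676 to 42947 in MDM, against 206.5 to 1620 in microglia. Plasmacytoid dendritic cell markers were mixed, with Ly6d, Ccr9 and Klk1 higher and Cox6a2 lower (-1.76 ± 0.34, adjusted p = 0.000416). No tested neutrophil marker was called, and Camp had the smallest p (-2.29 ± 1.03, adjusted p = 0.0815). The part of these other cells in the IRF levels was not tested, except as fits without libraries rich in T and NK cell transcripts. For MDM those were all 4 T1t libraries and T2t replicate 1. The T1s MDM libraries stayed in, with summed conventional dendritic cell markers of 20231 to 42947, against 5676 to 10769 in T1t MDM. The T2s MDM library also stayed in, with summed B and plasma cell markers of 90348. These fits therefore cannot settle the part of dendritic, B and plasma cells.

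A single MDM library stood apart in several members. By normalised counts, T1s MDM replicate 2 had the highest level of all 21 libraries in 5 members, Irf1, Irf2, Irf5, Irf7 and Irf9. Its Irf7 level, 357098, was 19.9 times the median of the 8 other MDM libraries, its Irf5 level 4.16 times, its Irf2 level 3.93 times, its Irf9 level 2.01 times and its Irf1 level 1.79 times. For Irf3, Irf4 and Irf8 it stood below that median, at 0.63, 0.35 and 0.9 times. The mean log2 level of 18 type I interferon target genes was 14.86 in this library and 10.05 to 13.36 in the other 20. The share of all genes that were highest in this library was not counted, and the rank of Irf1 depended on the scaling. T1t MDM replicate 1 held 31499 Irf1 reads of 34964635 in all, and T1s MDM replicate 2 held 27685 of 38295929. Members and lists that T1s MDM replicate 2 moved are given with and without it below.

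**Figure D1:**
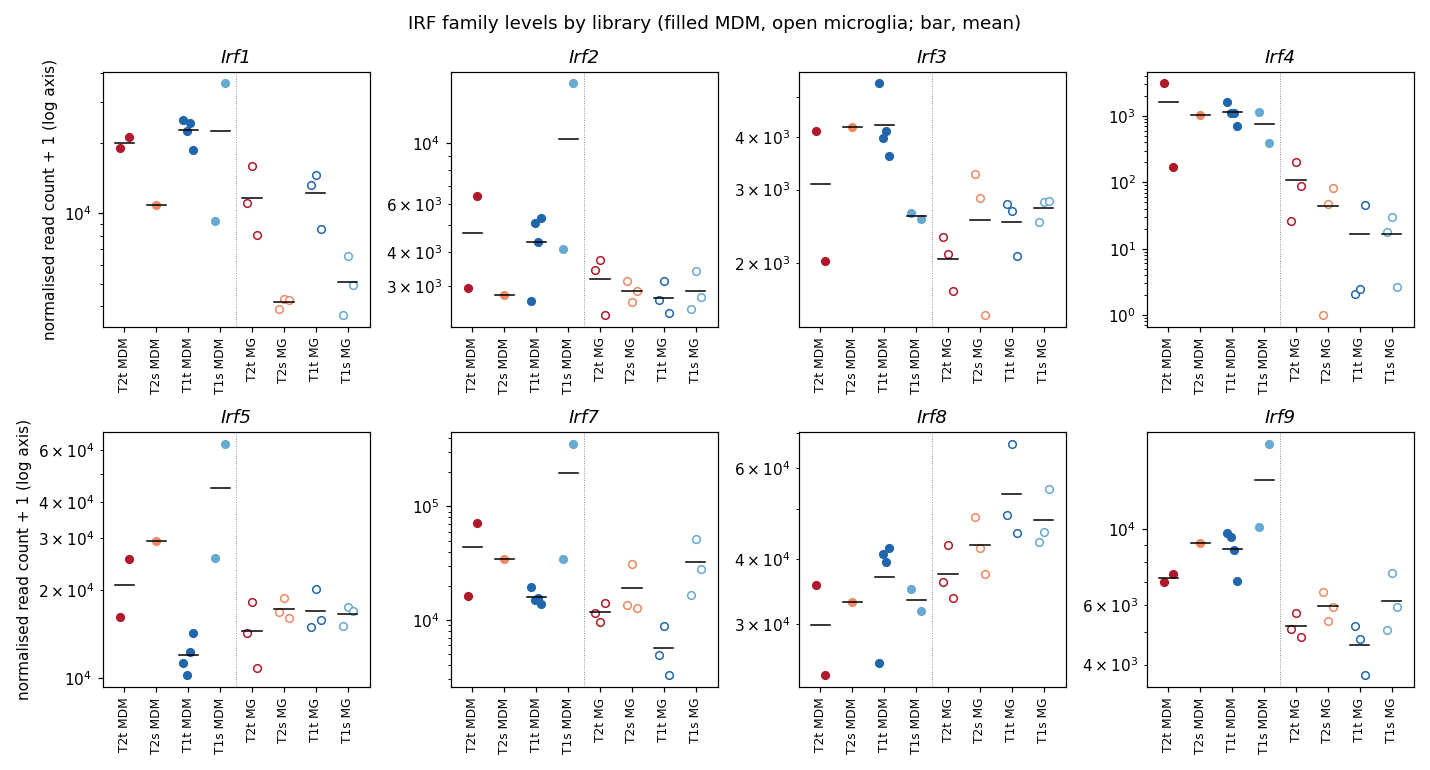
Level of each IRF member in every library (normalised read count + 1, log axis), by group, with MDM filled, microglia (MG) open and the group mean as a bar. The top point among T1s MDM for Irf1, Irf2, Irf5, Irf7 and Irf9 is replicate 2, which reached 357098 for Irf7.

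All 8 members differed between MDM and microglia, 7 of them higher in MDM and only Irf8 lower, with the 4 tumour classes weighted equally. Of all tested genes 42.7% were called in this comparison, 23% higher and 19.8% lower. The median log2 fold change was 0.73 over the members and 0.07 over all genes. In these bulk libraries fewer cells of a type and less RNA per cell cannot be told apart.

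Irf8 was the member with the highest level per kilobase of exon in microglia. It had 35705 and 23845 normalised counts in T2t MDM, 33052 in T2s MDM, 25179, 40904, 39438 and 42030 in T1t MDM, and 35052 and 31707 in T1s MDM. Microglia had 36076, 42610 and 33632 in T2t, 48190, 42006 and 37365 in T2s, 48565, 66821 and 44925 in T1t, and 43086, 45075 and 54538 in T1s. MDM libraries thus filled the lower part of the range, but the cell types overlapped between 33632 and 42030. The log2 fold change was -0.44 ± 0.15 (adjusted p = 0.0272), or 1.36-fold lower in MDM. This is the smallest change among the 8 members and the only call of this comparison that was lost under either other scaling. With quantile normalisation it was -0.09 (adjusted p = 0.74), with libraries scaled to the same total -0.2 (adjusted p = 0.283), and without T2t MDM replicate 3 it was -0.37 (adjusted p = 0.0655). It was also not called without the 5 MDM libraries rich in T and NK cell transcripts, all 4 T1t libraries and T2t replicate 1 (-0.50, adjusted p = 0.058), or without 3 microglia libraries, T1t replicates 1 and 2 and T1s replicate 2 (-0.39, adjusted p = 0.0916), both sets chosen after seeing the data. Spi1, which encodes the PU.1 partner of Irf8 and Irf4, had a median of 20704 in MDM and 25034 in microglia. These medians pool the tumour classes. Weighting the classes equally, limma-trend did not call Spi1 between the cell types, and its estimate was slightly higher in MDM (0.1 ± 0.2, adjusted p = 0.733).

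Irf4, a factor of plasma cells, activated T cells and some dendritic cells and macrophages, showed the widest difference. It had 3099 and 170.3 normalised counts in T2t MDM, 1030 in T2s MDM, 1654, 1105, 1126 and 702.2 in T1t MDM, and 1139 and 394.2 in T1s MDM. In microglia it had 25.4, 204.9 and 87.1 in T2t, 0, 46.2 and 82.1 in T2s, 1.09, 1.46 and 44.0 in T1t, and 16.7, 29.0 and 1.61 in T1s. All MDM libraries except T2t replicate 3 lay above all microglia libraries. Irf4 had a log2 fold change of 5.66 ± 0.87 (adjusted p = 3.87e-05). T2t MDM replicate 1, with the highest Irf4 level, also had by far the highest summed B and plasma cell markers, 1651030, and T2t MDM replicate 3, with the lowest MDM level of Irf4, had 34490. T1s MDM replicate 1 had 1139 counts of Irf4 beside a B and plasma cell sum of 11134, and the T1t MDM libraries had sums of 60704 to 236368. T1s MDM replicate 2 had 394.2 counts of Irf4 beside a sum of 1793, and the T2s MDM library 1030 beside 90348. The microglia sums were 1062 to 4143. Without the 5 T and NK cell-rich MDM libraries the log2 fold change was 4.36 ± 1.3 (adjusted p = 0.0285).

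Irf1, an activator induced by interferon gamma, and Irf2, which competes for its sites and was first known as its antagonist, were both higher in MDM. Irf1 had 18957 and 21198 normalised counts in T2t MDM, 10900 in T2s MDM, 25205, 22557, 24432 and 18588 in T1t MDM, and 9233 and 36015 in T1s MDM. In microglia it had 11060, 15883 and 8048 in T2t, 3899, 4306 and 4257 in T2s, 13276, 14666 and 8553 in T1t, and 3667, 6588 and 4947 in T1s. Within each class every MDM library lay above every microglia library, while across classes T1s MDM replicate 1 and the T2s MDM library lay within the range of transplanted microglia. The log2 fold change was 1.26 ± 0.22 (adjusted p = 0.000137), and 1.02 (adjusted p = 0.000128) without T1s MDM replicate 2. Irf2 ranged from 2643 through a median of 4342 to 16576 in MDM, and from 2346 through 2793 to 3721 in microglia. Its coefficient of variation was 77.4% over the MDM libraries, 32.5% over the 8 MDM libraries other than T1s replicate 2, and 15.5% over the microglia libraries. Irf2 had a log2 fold change of 0.65 ± 0.23 (adjusted p = 0.0306), and the call was lost without T1s MDM replicate 2, at 0.4 (adjusted p = 0.102), without T2t MDM replicate 3, at 0.51 (adjusted p = 0.0915), and without T2t microglia replicate 3, at 0.6 (adjusted p = 0.0534). It was also lost with no filter on low counts (adjusted p = 0.0594) and without the 5 T and NK cell-rich MDM libraries, at 0.85 (adjusted p = 0.0605).

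Among the sensor-activated members, Irf7, the amplifier of type I interferon production that is itself an interferon target, varied most across libraries. It had 16214 and 71364 normalised counts in T2t MDM, 34593 in T2s MDM, 19720, 15034, 15623 and 13769 in T1t MDM, and 34773 and 357098 in T1s MDM. In microglia it had 11447, 9653 and 14110 in T2t, 13516, 30930 and 12853 in T2s, 4877, 8920 and 3260 in T1t, and 16569, 51909 and 27920 in T1s. The highest microglia library, T1s replicate 2, carries the same replicate number and class as the highest MDM library. For Irf7 the log2 fold change was 1.52 ± 0.39 (adjusted p = 0.00398), and 1.1 (adjusted p = 0.00989) without T1s MDM replicate 2. Irf3, which is expressed in most cells and induces interferon beta once phosphorylated, ranged from 2026 through a median of 3983 to 5373 in MDM and from 1506 through 2585 to 3265 in microglia. For Irf3 the log2 fold change was 0.51 ± 0.17 (adjusted p = 0.0211), and it was not called without the T2s MDM library, at 0.41 (adjusted p = 0.0786), without T2t MDM replicate 1, at 0.38 (adjusted p = 0.0728), or without the 5 T and NK cell-rich MDM libraries, at 0.25 (adjusted p = 0.431).

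Irf5, which drives inflammatory cytokine genes below Myd88 and marks inflammatory macrophages, had MDM libraries on both sides of the microglia median. It had 16177 and 25446 normalised counts in T2t MDM, 29419 in T2s MDM, 11191, 10198, 12299 and 14238 in T1t MDM, and 25688 and 63276 in T1s MDM. Microglia ranged from 10775 through a median of 16411 to 20156. The 4 T1t MDM libraries and T2t MDM replicate 1 lay below the microglia median, and the other 4 MDM libraries lay above all microglia libraries. The log2 fold change was 0.52 ± 0.17 (adjusted p = 0.0193). It was 0.36 (adjusted p = 0.0607) without T1s MDM replicate 2, 0.44 (adjusted p = 0.0612) without the T2s MDM library, 0.44 (adjusted p = 0.0515) without T2t MDM replicate 3, and 0.97 (adjusted p = 0.00943) without the 5 T and NK cell-rich MDM libraries. The value of 0.97 leaves out T1t, where all 4 MDM libraries lay below the microglia median. Of the merged exon bases of Irf5, 14.1% overlap Tnpo3 on the opposite strand, and the strand of the reads is not given in the sources used here.

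Irf9, the DNA-binding part of ISGF3, had 7007 and 7383 normalised counts in T2t MDM, 9149 in T2s MDM, 9789, 9470, 8684 and 7052 in T1t MDM, and 10142 and 17886 in T1s MDM. In microglia it had 5082, 5690 and 4817 in T2t, 6529, 5381 and 5909 in T2s, 5204, 4750 and 3720 in T1t, and 5057, 7444 and 5916 in T1s. MDM lay above microglia within every class, and only T1s microglia replicate 2 reached the lower MDM levels. Irf9 had a log2 fold change of 0.8 ± 0.14 (adjusted p = 9.87e-05), and 0.7 (adjusted p = 0.000284) without T1s MDM replicate 2. Irf1, Irf4, Irf7 and Irf9 were called whichever of the 21 libraries was left out. The share of all genes that stayed called in all 21 fits was not counted.

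**Figure D2:**
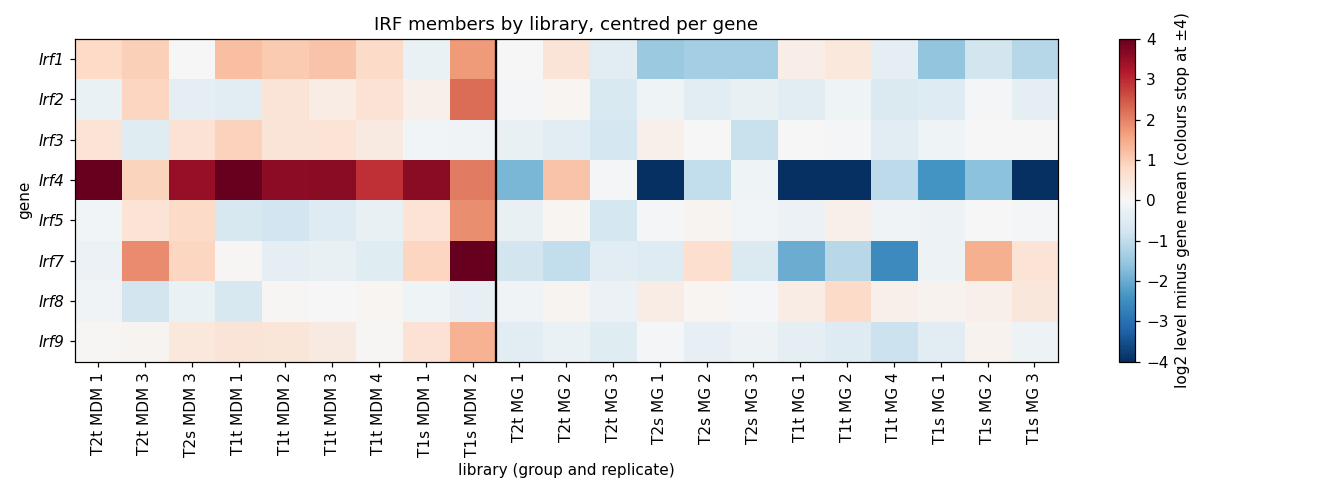
Log2 level of each member in every library minus that member's mean over the 21 libraries, with MDM left of the black line and microglia right of it; colours stop at 4 in either direction. Irf4 separates the cell types most, and Irf7 is highest in T1s MDM replicate 2 and lowest in T1t microglia replicate 4.

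The order of the members also differed between the cell types. Per kilobase of merged exon, median levels in MDM ran Irf5 (5569), Irf1 (5332), Irf7 (5223), Irf8 (4968), Irf9 (1699), Irf3 (1157), Irf2 (587.1) and Irf4 (225.5). In microglia they ran Irf8 (6238), Irf5 (5649), Irf7 (3492), Irf1 (1841), Irf9 (982.6), Irf3 (751), Irf2 (377.6) and Irf4 (5.55). The last 4 places were held by the same members in the same order, and the first 4 MDM levels lay closer together than the spread between libraries.

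Within single classes fewer members passed the threshold. In T1s MDM against T1s microglia 5 of 8 members were higher (Irf1, Irf2, Irf4, Irf5 and Irf9), where 13.4% of all genes were called and 8.52% were higher. This count was 0 without T1s MDM replicate 2, which leaves 1 MDM library whose spread is then assumed to be that of the other groups. In T1t 3 of 8 members were higher (Irf3, Irf4 and Irf9), where 34.1% of all genes were called and 18.2% were higher. With T1s MDM replicate 1 or 2 left out of the fit Irf1 and Irf7 were called as well, at adjusted p-values of 0.00889 to 0.0138. With all libraries Irf1 (adjusted p = 0.0512) and Irf7 (0.0568) narrowly missed the threshold in T1t. Of the 10 alternatives other than leaving out 1 library, Irf1 stayed uncalled under only 2, and Irf7 under 5. The T1t call of Irf3 was lost without any 1 of T1t MDM replicates 1 to 3 or of the 3 T1t microglia libraries, at adjusted p-values of 0.054 to 0.137. In T1s the call of Irf2 was also lost without T1s microglia replicate 1 or 3, at adjusted p-values of 0.081 and 0.077, and with no filter, at 0.065. The T1s call of Irf4 was also lost without T1s MDM replicate 1 (adjusted p = 0.12), without T1s microglia replicate 3 (0.107), with no filter (0.0633), with voom (0.0562) and without the 5 T and NK cell-rich MDM libraries (0.0667). When T1s was fitted alone, 0 of 8 members were called. In T2t and in T2s, which rests on 1 MDM library, limma-trend called 0 of 8 members, against 18% and 10.7% of all genes, and voom also called 0. At an unadjusted p under 0.05 the counts were 0 in T2t and 2 in T2s. Irf4 had log2 fold changes of 3.22 ± 1.69 in T2t, 6.03 ± 2.13 in T2s, 7.48 ± 1.41 in T1t and 5.91 ± 1.69 in T1s. In T2t it was 1.13 without MDM replicate 1 and 5.31 without MDM replicate 3, in T2s it lay between 4.04 and 7.23 over the fits that leave out 1 library, and in T1t it was 4.61 and not called without the 3 microglia libraries. Irf1 and Irf9 were above 0 in each class, from 0.84 ± 0.42 to 1.89 ± 0.42 for Irf1 and from 0.47 ± 0.26 to 1.15 ± 0.26 for Irf9. The upper ends are the T1s values, which were 0.91 for Irf1 and 0.74 for Irf9 without T1s MDM replicate 2 and then not called. Irf7 had 1.95 in T1s with that library and 0.27 without it.

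Irf2, Irf3 and Irf5 had class values on both sides of 0. For Irf2 and Irf3 the negative values lay close to 0, at -0.05 ± 0.57 in T2s for Irf2 and -0.06 ± 0.33 in T1s for Irf3. For Irf5 the 4 T1t MDM values, 10198 to 14238, lay below the 3 T1t microglia values, 14876 to 20156, with a log2 fold change of -0.50 ± 0.28 that was not called (adjusted p = 0.184) and was 0.07 with libraries scaled to the same total. In T2t, T2s and T1s it was 0.53 ± 0.33, 0.78 ± 0.42 and 1.29 ± 0.33. The T2t value was 0.2 without MDM replicate 3 and 0.85 without MDM replicate 1, and the T1s value was 0.64 (adjusted p = 0.37) without MDM replicate 2 and 1.94 without MDM replicate 1. Irf8 was below 0 in each class, between -0.54 and -0.35, but in T1t it was 0.52 with quantile normalisation and 0.03 with libraries scaled to the same total.

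**Figure D3:**
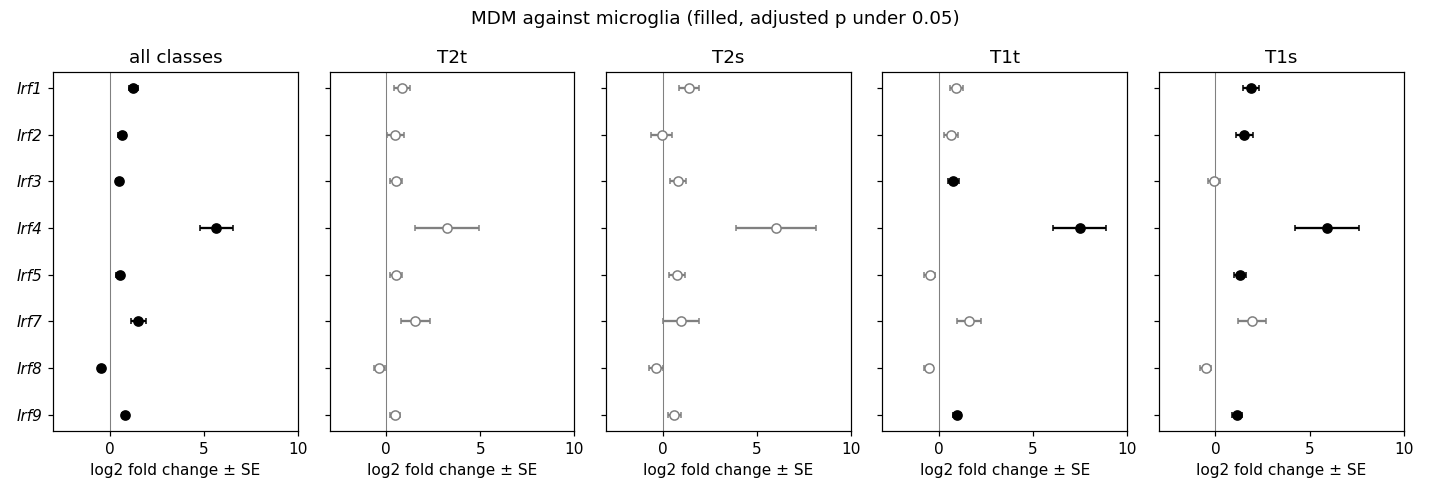
Log2 fold change of MDM against microglia for each member (± SE of the fit), over all classes and in T2t, T2s, T1t and T1s, with filled points for an adjusted p under 0.05. All 8 points are filled over all classes, 0 in T2t, 0 in T2s, 3 in T1t and 5 in T1s.

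The model comparison asked whether the family differed between transplanted and spontaneous tumours, each cell type on its own. In microglia 1 of 8 members was called, Irf1, where 1.84% of all genes were called and 1% were higher. Irf1 averaged 11914 ± 3230 in transplanted microglia and 4611 ± 1062 in spontaneous microglia (SD, n = 6 each). The values quoted above do not overlap: the transplanted libraries had 8048 to 15883 and the spontaneous ones 3667 to 6588, in both tumour types. The log2 fold change was 1.35 ± 0.27 (adjusted p = 0.015), or 2.55-fold higher. It was not called without T2t microglia replicate 2, at 1.23 (adjusted p = 0.0548).

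T and NK cell markers moved with this difference, 4 of 8 being higher in transplanted microglia, and their summed level was 169.7 to 3163 there, against 73.9 to 293.4 in spontaneous microglia. By mean log2 level of these markers the 3 T2t libraries, at 4.26 to 4.77, lay above all spontaneous microglia. The spontaneous levels were 2.03 to 3.83 in T1s and 1.05 to 2.37 in T2s, and the T1t levels were 3.17 to 8.38. The 2 highest sums, 2216 and 3163, were those of T1t replicates 1 and 2. By the sum alone, the other 4 transplanted libraries lay at 169.7 to 290.5, inside the spontaneous range. Their Irf1 levels were 8048 to 15883, above the spontaneous ones. Without those 2 libraries and T1s replicate 2, which had the highest mean of type I target genes among microglia, 12.98 log2 units, a set chosen after seeing the data, the log2 fold change was 1.22 ± 0.35 (adjusted p = 0.0886). It was 1.35 ± 0.31 (adjusted p = 0.0787) when the fit lacked the 5 T and NK cell-rich MDM libraries, which enter only through the estimate of the spread.

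Irf7 went the other way in the same libraries without passing the threshold, with 3260 to 14110 normalised counts in transplanted microglia, against 12853 to 51909 in spontaneous microglia. Its log2 fold change was -1.53 ± 0.48 (adjusted p = 0.102), and it was called when T1s MDM replicate 1 (adjusted p = 0.0353) or replicate 2 (adjusted p = 0.0349) was left out of the estimate of the spread. The remaining 6 members had log2 fold changes from -0.31 to 0.72, and none was called.

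In MDM 1 of 8 members was called between the models, Irf5, where 7.06% of all genes were called and 3.41% were lower. Irf5 averaged 14925 ± 5584 in transplanted MDM (SD, n = 6) and 39461 ± 20708 in spontaneous MDM (SD, n = 3). The transplanted libraries ended at 25446 and the spontaneous ones began at 25688, so the groups did not overlap but nearly met. Its log2 fold change was -1.15 ± 0.27 (adjusted p = 0.0148), or 2.22-fold lower in transplanted MDM. It was not called without T1s MDM replicate 2, at -0.82 (adjusted p = 0.0525), or without T2t MDM replicate 1, at -0.99 (adjusted p = 0.0648), and it had an adjusted p of 0.108 when the MDM groups were fitted alone. It was -1.47 without T1s MDM replicate 1. Without the T2s MDM library it was -1.76, but this compares T1t with T1s MDM only, because T2t MDM then has no spontaneous group beside it.

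Markers of other cells differed between the same MDM libraries. In transplanted MDM 2 of 8 T and NK cell markers and 3 of 7 B and plasma cell markers were higher and 4 of 8 microglia markers were lower, while 0 of 7 MDM markers were called by limma-trend. The summed T and NK cell markers were 20106 to 221733 in transplanted MDM and 5218 to 29499 in spontaneous MDM. T2t MDM replicate 3, with a sum of 20106, had the transplanted Irf5 level nearest to the spontaneous ones, 25446. Without the 5 T and NK cell-rich libraries no T1t MDM library remained, and the comparison covered type 2 tumours only. It then set T2t MDM replicate 3 against the T2s MDM library, with a log2 fold change of -0.21. With all libraries, Spi1 was lower between the models, with 8120 to 28024 normalised counts in transplanted MDM and 27902 to 62016 in spontaneous MDM.

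Irf1 in MDM had a log2 fold change of 0.59 ± 0.35 between the models (adjusted p = 0.372), 1.08 (adjusted p = 0.0278) without T1s MDM replicate 2, 0.1 (adjusted p = 0.891) without T1s MDM replicate 1 and 0.31 (adjusted p = 0.689) without the T2s MDM library. Irf7 had -1.42 ± 0.62 (adjusted p = 0.195), and it was called without T1s MDM replicate 1 (-2.26, adjusted p = 0.0141) or the T2s MDM library (-2.81, adjusted p = 0.0134). It was -0.58 (adjusted p = 0.616) without T1s MDM replicate 2 and -0.88 (adjusted p = 0.528) without T2t MDM replicate 1. The difference of the model effect between MDM and microglia was called for 0 of 8 members by limma-trend and by voom, against 2.24% of all genes, with 1 member at an unadjusted p under 0.05. That member was Irf5, at -1.02 ± 0.34 (adjusted p = 0.13), which was called without T1s MDM replicate 1 (-1.34, adjusted p = 0.0255) or without the T2s MDM library (-1.79, adjusted p = 0.0246), and was -0.69 (adjusted p = 0.234) without T1s MDM replicate 2. It is thus not shown that the Irf1 and Irf5 differences belong to 1 cell type. The values given here without the T2s MDM library are those of type 1 tumours only.

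**Figure D4:**
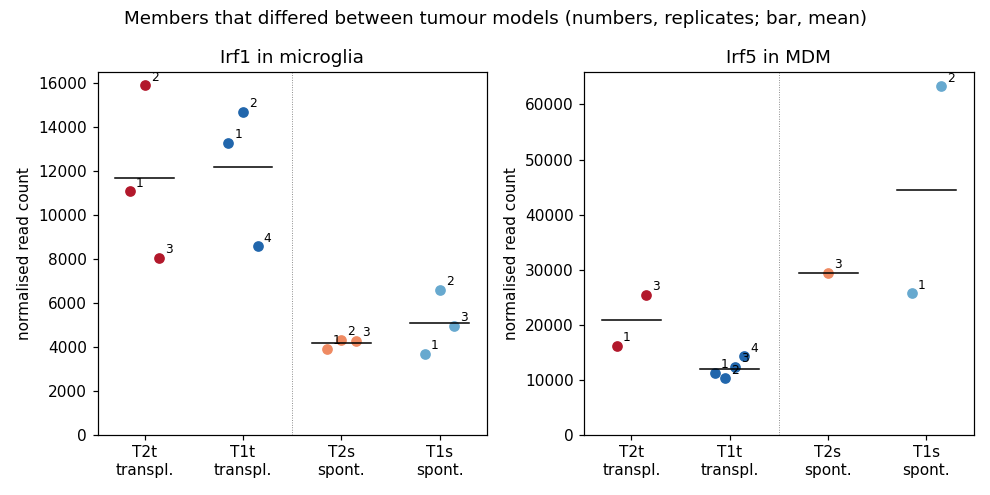
Normalised read counts of Irf1 in microglia and of Irf5 in MDM by tumour class, with transplanted classes left of the dotted line, spontaneous classes right of it, replicate numbers beside the points and the class mean as a bar. Irf1 in transplanted microglia starts at 8048 and in spontaneous microglia ends at 6588, and Irf5 in transplanted MDM ends at 25446 and in spontaneous MDM starts at 25688.

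Tumour type gave no called member. Between type 2 and type 1 tumours limma-trend and voom both called 0 of 8 members in microglia, against 0.47% of all genes, and 0 of 8 in MDM, against 1.57%, and 0 members had an unadjusted p under 0.05 in either. In microglia the log2 fold changes ran from -0.33 ± 0.19 for Irf8 to 2.09 ± 1.07 for Irf4, which had 0 to 204.9 normalised counts in type 2 and 1.09 to 44.0 in type 1 microglia. In MDM they ran from -0.76 ± 0.37 for Irf2 to 0.16 ± 0.27 for Irf5, and Irf2 was called without T1s MDM replicate 1 (-1.27, adjusted p = 0.0464) but was -0.26 (adjusted p = 0.782) without T1s MDM replicate 2 and 0.05 without the T2s MDM library. The fit without the T2s MDM library compares T2t with T1t MDM only. The standard errors of 0.16 to 1.39 show how little a difference in Irf4 in particular could be resolved. The difference of the cell type effect between tumour types and the tumour type by model difference in microglia were also called for 0 of 8 members by both tools, against 0.0871% and 0.0116% of all genes, with 0 members at an unadjusted p under 0.05 in each.

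The genes around the family are given next, from lists of pathway roles, beside a background of 23% of all genes higher and 19.8% lower in MDM. Upstream, 3 of 11 sensors were higher in MDM and 4 lower, and 1 was higher without T1s MDM replicate 2 or without T2t MDM replicate 3. Tlr8 was higher (5.46 ± 0.89, adjusted p = 6.8e-05), and the lipopolysaccharide receptor Tlr4 (-1.74 ± 0.24, adjusted p = 1.14e-05), the single-stranded RNA receptor Tlr7 (-1.79 ± 0.29, adjusted p = 5.85e-05) and the double-stranded RNA receptor Tlr3 (-1.77 ± 0.31, adjusted p = 0.000161) were lower. Of the adaptors and kinases that activate Irf3, Irf5 and Irf7, 6 of 12 were higher and 3 lower in MDM. The kinases Ikbkb (1.55 ± 0.19) and Irak4 (0.99 ± 0.19) and the adaptor Myd88 (1.19 ± 0.23) were higher, and Slc15a4, a lysosomal transporter needed for Irf5 activation by endosomal receptors, was lower (-0.72 ± 0.14).

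Of the 4 interferon genes that could be tested, Ifng was higher in MDM (5.94 ± 0.87, adjusted p = 2.15e-05) and Ifnb1 (-4.29 ± 0.73, adjusted p = 0.000106) and Ifna2 (-1.86 ± 0.58, adjusted p = 0.0143) were lower. Ifng, a product of T and NK cells, had 14.7 to 1188 normalised counts in MDM and 0 to 39.4 in microglia, and the T and NK cell markers Gzma (8.88 ± 0.68) and Prf1 (8.56 ± 0.69) were higher in MDM as well. Ifnb1 had 504.7 normalised counts in T1s MDM replicate 2, 7.33 in T1s MDM replicate 1 and 0 to 6.11 in the other MDM libraries, against 11.9 to 940.3 in microglia. T1s MDM replicate 2, highest in 5 of the 8 IRF members by normalised counts, was thus the only MDM library with Ifnb1 above the lowest microglia level.

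Downstream, 5 of 9 receptor and JAK-STAT genes were higher in MDM and 2 lower, with Jak1 (0.87 ± 0.17), Jak2 (1.55 ± 0.33) and Ifnar1 (0.76 ± 0.19) higher and Ifngr2 (-0.84 ± 0.19) lower. Among feedback inhibitors 3 of 5 were higher, Socs1 by 2.26 ± 0.38 (adjusted p = 9.1e-05). Of the binding partners and corepressors 3 of 10 were higher, namely the Irf4 partner Batf (1.52 ± 0.27), Bcl6 (1.3 ± 0.28) and Prdm1 (1.29 ± 0.33), a repressor that shares IRF sites. Only 2 of 18 type I interferon target genes were called, Mx1 (1.62 ± 0.44, adjusted p = 0.00636) and Oas3 (1.41 ± 0.46, adjusted p = 0.0195), both higher, with a list median of 0.65. That count rested on single libraries: 12 type I targets were higher without T1s MDM replicate 1, and 1 was higher and 1 lower without T1s MDM replicate 2, with a list median of 0.2, or without T2t MDM replicate 3, with 0.24. It was also 5 without T2t MDM replicate 1 and 4 without T1s microglia replicate 2 or the T2s MDM library. Of the interferon gamma and Irf1 target genes 6 of 17 were higher and 0 lower, with a list median of 0.63. They were Ciita (4.3 ± 0.41, adjusted p = 1.83e-07), the class II transactivator that B cells and dendritic cells also express, the immunoproteasome genes Psmb8, Psmb9 and Psmb10 (0.77 to 0.91), the peptide transporter gene Tap1 (0.63 ± 0.21) and Nlrc5 (0.99 ± 0.35), a transactivator of class I genes. Without T1s MDM replicate 2, Psmb10, Tap1 and Nlrc5 were not called, 3 targets were higher and 1 lower, and the list median was 0.32. Without T1s MDM replicate 1, 12 were higher. Without the 5 T and NK cell-rich MDM libraries 2 were higher.

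Between the models in microglia, of the interferon gamma and Irf1 targets 3 of 17 were higher in transplanted microglia, with a list median of 0.89, against 0.04 over all genes. These were the chemokine gene Cxcl9 (3.56 ± 0.52, adjusted p = 0.00131), Ciita (3.37 ± 0.5, adjusted p = 0.00147) and the immunity-related GTPase gene Iigp1 (2.75 ± 0.48, adjusted p = 0.00495). Cxcl9 had 1021 to 6754 normalised counts in transplanted microglia, against 64.1 to 1355 in spontaneous microglia. The count of 3 was 6 to 8 without T1s MDM replicate 1 or 2, T1s microglia replicate 2 or T2s microglia replicate 3. Of the 18 type I targets limma-trend called 0, with a list median of -0.61, and Oasl1 (-1.98 ± 0.66, adjusted p = 0.124) had the smallest p. The mean log2 level of the type I targets was 10.05 to 10.66 in T1t and 11.03 to 12.98 in T1s microglia, but 11.18 to 11.71 in T2t and 11.11 to 11.61 in T2s microglia, so the models were apart in type 1 and overlapped in type 2 tumours. Ifng itself was at 0 to 39.4 normalised counts in transplanted and 0 to 32.2 in spontaneous microglia.

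Between the models in MDM the sensor Tlr9 (-2.97 ± 0.86, adjusted p = 0.0431), the adaptors Ticam2 (-1.37 ± 0.33, adjusted p = 0.0172) and Mavs (-0.86 ± 0.21, adjusted p = 0.0175), the receptor genes Ifngr2 (-1.22 ± 0.31) and Ifnar1 (-1.01 ± 0.3) and Spi1 (-1.26 ± 0.32, adjusted p = 0.022) were lower in transplanted MDM. These are 1 of 11 sensors, 2 of 12 adaptors and kinases, 2 of 9 receptor and JAK-STAT genes and 1 of 10 partners, where 3.41% of all genes were lower. Without T1s MDM replicate 2 only Mavs of these 6 genes was called, without T2t MDM replicate 1 also only Mavs, and without the T2s MDM library (-0.55, adjusted p = 0.154) or T1s MDM replicate 1 (-0.71, adjusted p = 0.0586) Mavs was not called. Of the interferon gamma and Irf1 targets 1 of 17 was higher, Iigp1 (2.32 ± 0.62, adjusted p = 0.0286), which was not called without T1s MDM replicate 1, T2t MDM replicate 3 or the T2s MDM library, while 5 were higher without T1s MDM replicate 2. Of the type I targets limma-trend called 0 of 18, with a list median of -0.996. Fits of this comparison without the T2s MDM library set T1t against T1s MDM only. The list median of the type I targets was -0.12 without T1s MDM replicate 2 and -0.24 without T2t MDM replicate 1. Without the T2s MDM library it was -2.48, with 10 targets lower, without T1s MDM replicate 1 -1.93, with 7 lower, and without T2t MDM replicate 3 -1.77, with 4 lower.

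**Figure D5:**
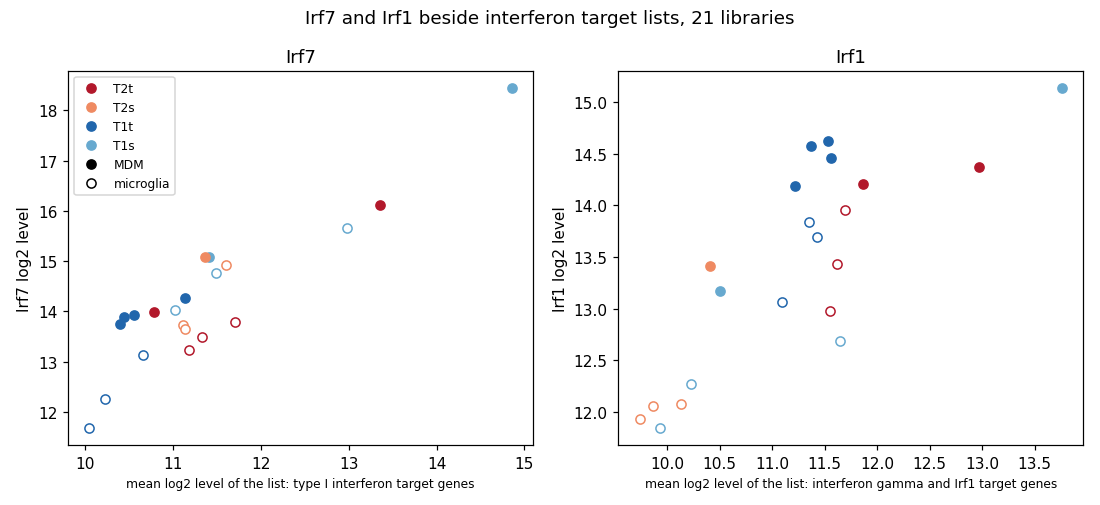
Log2 level of Irf7 against the mean log2 level of 18 type I interferon target genes, and of Irf1 against that of 17 interferon gamma and Irf1 target genes, 1 point per library, with MDM filled, microglia open and colour for tumour class. T1s MDM replicate 2 is at the upper right of both panels, with a type I list mean of 14.86.

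The genes whose profiles over the 21 libraries were most like each member were sought among 13887 tested genes with established names, as the smallest root-mean-square (RMS) difference of log2 levels centred per gene. For Irf7 they were Phf11a (RMS 0.3 log2), Usp18 (0.44) and Phf11b (0.46), where Irf7 itself spanned 6.77 log2 units. For Irf1 they were Kat2b (0.48), Igtp (0.49) and Tap1 (0.5) over a span of 3.3, and Igtp and Tap1 are on the list of interferon gamma and Irf1 targets. For Irf5 they were Nrros (0.28), Gsdmd (0.28) and Prkcd (0.31), and for Irf4 Erbb3 (1.22), Dennd3 (1.48) and Mpzl3 (1.56) over a span of 11.6. For Irf2 they were Tlk2, Mcmbp and Nsd3 (0.34 to 0.36), for Irf9 Inpp5k, Rnf114 and Dbnl (0.23 to 0.26), and for Irf3 Arfrp1, Trp53 and Abt1 (0.2 to 0.23). Irf8 varied so little, with an SD of 0.34 log2 units, that its nearest genes Strada, Kdelr1 and Gcdh (0.23 to 0.24) lay hardly nearer than that spread. Each profile holds the split between the cell types and the level of T1s MDM replicate 2, and no test was made of these likenesses.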

How the data were processed

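RNA of sorted MDM and microglia was measured by sequencing SMART-Seq v4 libraries, per the labels' protocols. Per the submitters' processing notes, STAR 2.7.8a, the mm10 build and DESeq2 were used, and the version of DESeq2 is not given in the sources used here. The deposited values are on a log2 scale, in the form of a variance-stabilising transformation with a floor of 4.22, for 21 of the 25 labelled samples; the other 4 were not analysed here. Because the tests had been planned for normalised counts, the transformation was inverted. Of all values, 100% came back as whole reads within 1e-06, with size factors of 0.62 to 1.55.

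Normalised counts were taken as log2(count + 1), a gene was tested when 3 or more libraries had 10 or more, and limma-trend (limma 3.58.1, R 4.3.3) estimated 8 group means, weighted equally in 12 contrasts. Calls used a Benjamini-Hochberg adjusted p under 0.05. The fit was tested on simulated data. Exon lengths and overlaps came from GENCODE M21 (GRCm38), promoter windows from RefSeq. Tables were handled in pandas 2.3.3 with numpy 2.4.6 under python 3.11.15, and plots drawn with matplotlib 3.10.9.

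The members and gene lists were chosen with earlier results of these data known. Named genes are the 8 members, up to 4 genes of each list with the smallest p in a comparison, any other called gene of a list with few calls, and the 3 nearest profiles per member; Ifng and Spi1 in other comparisons, and Psmb10, Tap1 and Nlrc5, were named after their values were seen. Some genes of the lists are counted but not reported here by name. Alternatives were a pseudocount of 8, a filter of 50, no filter, quantile normalisation, rescaling to the same total, the deposited values, voom, fits of only the compared groups, a replicate block and each library left out. Leaving out 5 MDM libraries rich in T and NK cell transcripts, and 3 microglia libraries, was added after seeing the data. Counts of the gene lists under left-out libraries and other scalings were also added after seeing the data.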

Additional observations from a re-analysis of the deposited data

Results flagged for a closer look

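Irf8 in the 4 T1t MDM libraries had a low value set apart from the rest, 25178.5 normalised counts in replicate 1 against 39438 to 42030 in the other 3 replicates. It was found among the 8 combinations of a member with a group of 4 to 10 libraries examined, and chance sets a value apart like this in about 1 in 20 groups. The same library had the highest Irf3 level of all 21, 5373.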

How the results depend on the processing

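No called member changed direction under an alternative; over all comparisons and members 2940 results kept their side of the threshold, 50 lost it and 42 gained it. Counts of called members, leaving out each library in turn, ranged 5 to 8 for MDM against microglia (8 with all libraries), 0 to 2 for the model in microglia (1), 0 to 1 for tumour type in MDM (0), 0 to 2 for the model in MDM (1), 0 to 1 for cell type by model (0), 0 to 5 within T1s (5), 2 to 5 within T1t (3) and 0 to 1 within T2s (0). Without the 5 MDM libraries rich in T and NK cell transcripts the counts were 5 for MDM against microglia, 0 for the model in microglia and 0 for the model in MDM, and without the 3 microglia libraries 0 for the model in microglia and 1 within T1t. For MDM against microglia the count of 8 was 7 with quantile normalisation, rescaling to the same total, no filter, or without the 3 microglia libraries. Quantile normalisation gave 2 for the model in MDM, 5 within T1t and 1 within T2s, and rescaling to the same total 6 within T1t and 1 within T2s. Voom gave 5 within T1t, a pseudocount of 8 gave 1 within T2s, the deposited values gave 1 within T2s and 1 within T2t, and no filter gave 3 within T1s. Fits of only the compared groups gave 0 for the model in MDM, 0 within T1s and 5 within T1t. The causes were not tested. Libraries with the same replicate number and class correlated at 0.035 to 0.241, over 0.1 in 2 of 7 pairs, so the numbers were not taken to pair libraries. Both of these were T1s pairs (0.241 and 0.228), which are not independent because T1s MDM has 2 libraries. Whether such libraries share a tumour is not given in the labels, and these correlations cannot settle it. The replicate block (block correlation 0.14) gave 5 within T1t and changed no other count. The median of all genes in MDM against microglia was 0.07, -0.07 with quantile normalisation and 0.29 at the same total, and 53.7%, 45.4% and 67.4% of calls were higher; for the model in MDM the same total gave 79.5% higher, against 51.7%, and for the model in microglia 64.8%, against 54.6%. Groups of 1 to 4 libraries limit all within-class results, and T2s MDM has 1. With that library left out, the contrasts that use it cover fewer tumour classes. Without the 5 MDM libraries rich in T and NK cell transcripts, the model in MDM was 1 T2t library against 1 T2s library. Counts of called members under alternatives are given without the share of all genes called in the same fit.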
